A study of Mus musculus with 18 samples.

Results

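The 27 genes described here encode enzymes of cholesterol and fatty acid synthesis and the proteins that control them. They were taken by symbol from the array's annotation, with 1 probe set kept per gene, the one with the highest mean over the 18 arrays, so that they are 27 of 18193 measured genes. They form 3 branches that were kept apart: sterol synthesis with 16 genes, sterol control and transport with 5 genes and fatty acid synthesis with 6 genes. Levels are log2 intensities as deposited, in which a difference of 1 is a 2-fold difference. The lowest level of any of the 27 genes in any sample was 5.87, above the low-level limit of 4.64 used for all genes.

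Cells build cholesterol from acetyl units through mevalonate, farnesyl diphosphate and squalene, and lanosterol is then trimmed to cholesterol. The same acetyl units, exported from mitochondria as citrate, are elongated to saturated fatty acids and then desaturated. Both branches are switched on by the SREBP transcription factors, which are held in the endoplasmic reticulum by Insig proteins while sterol is plentiful and which PI3K and Akt signalling is known to activate in many cell types.

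RNA of male mouse 129SV embryonic stem cells (ESCs) was measured, 1 array per sample. The parental line was EBRTcH3, grown with LIF and serum in 2 separate untreated samples, each with its own sample after 5 days of LY294002, an inhibitor of PI3K; the second also had a sample after 2 days. EBRTcH3 derivatives labelled as overexpressing wild-type c-Myc or its T58A mutant each had 1 untreated, 1 day 2 and 1 day 5 sample of LY294002 in the same medium. EBRTcH3 cells in 2i medium had 1 untreated sample and 1 sample after 5 days of LY294002, and the labels do not say whether the 2i medium held serum. Cells labelled Max-null ESCs, after Max, the partner of Myc on DNA, had 1 sample without doxycycline (Dox), 1 after 4 days and 1 after 6 days of Dox. Max-null cells with added p110 alpha, a PI3K catalytic subunit, had 1 sample without and 1 with Dox, whose day is not given. The series compared the Dox samples to follow ablation of Max, and the labels do not describe the construct, the number of clones or separate cultures. The p-values below therefore measure only the spread between these samples.

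The windows below are the 250 bases before the annotated start of 4 genes, from RefSeq on GRCm38.p6. They are shown because most of the 27 genes share short elements there that the choice of genes did not use. Capitals mark matches, on either strand, to 3 motifs: TCACNCCAC, a sterol response element core, CACGTG, an E-box, and CCAAT, read as ATTGG on the other strand and known as the site of NF-Y. The windows are Hmgcs1 at chr13:119690101-119690350 on the plus strand, Mvk at chr5:114444019-114444268 on the plus strand, Cyp51 at chr5:4104698-4104947 on the minus strand and Insig1 at chr5:28071162-28071411 on the plus strand.
Hmgcs1: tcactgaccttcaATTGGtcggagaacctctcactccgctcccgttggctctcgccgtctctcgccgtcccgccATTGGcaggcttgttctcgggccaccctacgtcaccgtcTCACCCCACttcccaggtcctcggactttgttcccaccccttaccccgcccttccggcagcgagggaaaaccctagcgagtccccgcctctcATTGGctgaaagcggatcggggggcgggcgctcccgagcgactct
Mvk: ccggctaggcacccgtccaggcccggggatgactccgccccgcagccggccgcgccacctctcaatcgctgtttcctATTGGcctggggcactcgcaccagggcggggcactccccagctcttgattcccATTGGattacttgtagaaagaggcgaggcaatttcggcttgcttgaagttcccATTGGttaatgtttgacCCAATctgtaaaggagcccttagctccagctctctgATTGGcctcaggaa
Cyp51: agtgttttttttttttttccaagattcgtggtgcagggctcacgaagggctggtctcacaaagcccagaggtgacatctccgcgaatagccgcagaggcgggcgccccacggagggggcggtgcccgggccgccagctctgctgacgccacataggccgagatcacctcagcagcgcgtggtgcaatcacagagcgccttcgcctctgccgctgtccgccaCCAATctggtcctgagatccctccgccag
Insig1: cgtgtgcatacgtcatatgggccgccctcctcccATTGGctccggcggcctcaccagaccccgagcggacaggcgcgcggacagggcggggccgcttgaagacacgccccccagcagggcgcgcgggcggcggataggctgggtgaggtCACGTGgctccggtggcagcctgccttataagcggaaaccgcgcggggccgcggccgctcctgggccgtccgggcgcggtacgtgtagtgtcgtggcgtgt
Hmgcs1 encodes the synthase that makes HMG-CoA, Mvk the mevalonate kinase, Cyp51 the lanosterol demethylase and Insig1 the sterol-sensing anchor of the SREBP complex. Of the 27 genes, 21 had at least 1 window, with 26 windows in all because Dhcr7, Srebf1 and Pmvk have several annotated starts. A gene was counted where any of its windows held the motif. CCAAT was found for 18 of these 21 genes (85.7%), against 37.5% of all 27025 genes and 40% of 11295 genes above the low-level limit. CACGTG was found for 4 genes (19.0%, against 6.9% and 9.7%) and TCACNCCAC for 1, Hmgcs1 (4.8%, against 1.2% and 1.3%). Another motif, GGGCGG, known as the site of Sp1, is not in capitals. It was found for 17 genes (81.0%), against 35.4% of all genes and 61.2% of the genes above the limit. These matches are descriptions of letters in a window, and CCAAT and GGGCGG can occur together in 1 window.

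The array medians fell into separate ranges. The 4 arrays of the first parental pair and the 2i pair had medians of 5.03 to 5.05 and are deposited with 9 decimals, and the other 14 had medians of 5.31 to 5.52 and 6 decimals. The mean of 8 ESC marker genes lay between 12.02 and 12.51 in the 18 samples. Marker means were 4.40 to 5.66 for 7 primitive or visceral endoderm genes, 3.65 to 4.83 for 6 fibroblast or feeder genes, 4.96 to 6.58 for 5 neural genes and 5.47 to 6.42 for 6 trophoblast genes. Max lay between 8.17 and 8.71 in the EBRTcH3 arrays and their c-Myc derivatives. It was 7.09 without Dox and 6.89 and 7.18 on days 4 and 6 in the plain Max-null line, and 6.70 and 6.33 without and with Dox in the p110 alpha line, above the low-level limit in all 5 arrays. Pik3ca, which encodes p110 alpha, was 8.82 in the untreated p110 alpha sample and 8.50 in the untreated plain Max-null sample. Myc was 7.51 and 6.99 in the untreated lines labelled wild-type and T58A c-Myc and 7.43 in parental replicate 2, so the probe set used did not read more Myc in them. On day 5 of LY294002 it was higher, at 9.60, 9.55 and 9.60 in the same order. In the untreated Max-null lines Myc was 8.905 in the plain and 7.032 in the p110 alpha line. Where these probe sets lie in the added or deleted sequences was not tested. The description of the untreated T58A sample also names its treated partners as N-Myc, where their own titles say c-Myc.

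**Figure D1:**
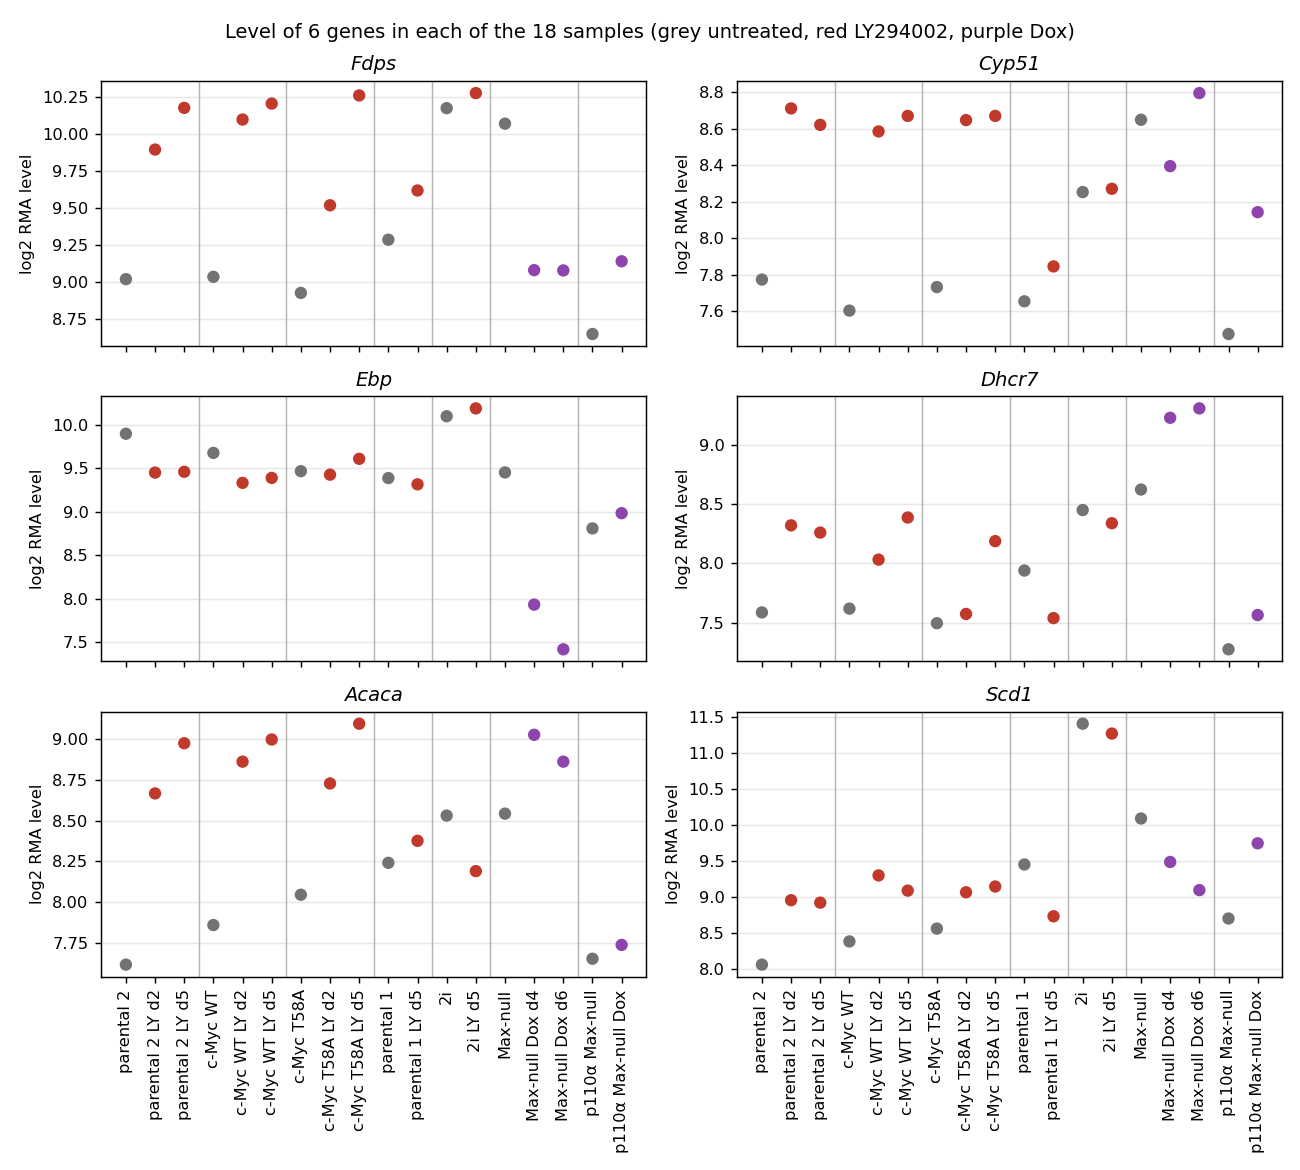
Log2 level (vertical axes, each with its own range) of 6 of the 27 genes in the 18 samples, grey without treatment, red with LY294002 and purple with Dox. Points are single arrays; Scd1 is highest in the pair of 2i samples, Ebp lowest in the plain Max-null samples with Dox, and the untreated p110 alpha sample is the lowest of the 18 for Fdps, Cyp51 and Dhcr7.

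Inhibition of PI3K with LY294002 was followed by higher levels of many of these genes in parental replicate 2 and the lines labelled c-Myc. On day 2, 13 of the 27 genes rose, none fell and 14 did not pass the test, with 6 of 16 in sterol synthesis, 2 of 5 in control and transport and 5 of 6 in fatty acid synthesis. Of 13420 genes tested, 18.3% rose and 12.3% fell on that day. On day 5, 19 of the 27 rose, none fell and 8 did not pass, with 10 of 16, 4 of 5 and 5 of 6 in the same order. Over all genes, 25.7% rose and 18.5% fell on day 5. Centring each array on its median lowered the share of rising genes among all day 5 calls from 58.2% to 45.9%. With centring, 10 of the 27 rose on day 2 and 18 on day 5 and none fell, and with quantile normalization 9 rose and 1 fell on day 2. The shares of all genes that rose or fell under these scalings are not set beside these counts, so the counts cannot be read against them. The test was limma's moderated test over 9 samples, with the line as a block and Benjamini-Hochberg adjustment over all genes at 0.05. RNA was pooled from many cells, so a change in cell types and a change per cell cannot be told apart.

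Cyp51, the lanosterol demethylase whose window is printed above, had the smallest adjusted p of the 27 genes on both days. Its level went from 7.77 untreated to 8.71 on day 2 and 8.62 on day 5 in the parental line, from 7.60 to 8.59 and 8.67 in the wild-type c-Myc line, and from 7.73 to 8.65 and 8.67 in the T58A line. The untreated and treated levels did not overlap. Cyp51 rose by 0.94 ± 0.07 on the log2 scale on day 2 (SE, 3 lines, limma adjusted p = 0.000414) and by 0.95 ± 0.07 on day 5 (adjusted p = 0.000153). A second Cyp51 probe set differed by -0.08, 0.31 and 0.46 on day 5 in the 3 lines, so the sizes of the 2 probe sets disagree.

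Fdps makes farnesyl diphosphate, the branch point between sterols and protein prenylation. Its level went from 9.02 to 9.90 and 10.18 in the parental line, from 9.04 to 10.10 and 10.21 in the wild-type c-Myc line, and from 8.93 to 9.52 and 10.26 in the T58A line. Every treated level lay above every untreated one, and the T58A line was the lowest of the 3 on day 2. Fdps rose by 0.85 ± 0.12 on day 2 (limma adjusted p = 0.00251) and by 1.22 ± 0.12 on day 5 (adjusted p = 0.000319). 

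Idi1, the isopentenyl diphosphate isomerase, rose by 0.40 on day 2 and 0.71 on day 5. Mvk rose by 0.33 and 0.45 on these days. Fdft1, which makes squalene, rose by 0.42 and 0.76, and Sqle, which oxidises squalene, by 0.37 and 0.85. Mvd, the mevalonate diphosphate decarboxylase, differed by 0.27 on day 2 without passing (limma adjusted p = 0.0547) and rose by 0.62 on day 5. Hmgcs1 differed by 0.09 on day 2 without passing (adjusted p = 0.59) and rose by 0.51 on day 5. Pmvk, the kinase between Mvk and Mvd, differed by 0.05 on day 2 (adjusted p = 0.703) and 0.20 on day 5 (adjusted p = 0.0884) and passed on neither day.

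Among the late enzymes the direction was mixed. Dhcr7 and Sc5d, which finish the sterol ring, rose by 0.71 and 0.48 on day 5, and neither passed on day 2. Msmo1 and Nsdhl, which remove methyl groups after Cyp51, differed by -0.14 and 0.01 on day 5, Hsd17b7 by -0.07, Ebp by -0.19 and Lss, the enzyme that closes the ring, by -0.09, and none of these passed. On day 2, 5 of the 16 sterol synthesis genes were below untreated in all 3 lines and 10 were above. A second probe set of Lss was lower on day 5, by -0.83, -0.80 and -0.44 in the 3 lines, and one of Sc5d was lower by -0.54, -0.49 and -0.33, against the direction of the Sc5d probe set used. Of 29 further probe sets above the limit, 22 had the same sign on day 5 as the one used for their gene and 7 had the opposite sign.

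Of the genes of sterol control and transport, all but Stard4 rose on day 5. Insig1, a target and a brake of SREBP, was 8.49, 8.44 and 8.43 untreated in the parental, wild-type c-Myc and T58A lines. It was 9.05, 9.28 and 8.90 on day 2 and 8.63, 8.99 and 9.12 on day 5. The untreated levels lay below all treated levels, and the day 2 and day 5 levels overlapped. Insig1 rose by 0.63 on day 2 and 0.46 on day 5. Srebf2, which encodes the SREBP of the sterol branch, rose by 0.38 on day 5, Srebf1 by 0.45, and Tmem97, a sterol-responsive membrane protein, by 0.31 on day 2 and 0.38 on day 5. Stard4, a cytosolic sterol carrier, differed by 0.18 on day 5 and did not pass, while a further probe set of Stard4 read 1.09, 1.17 and 1.02 in the 3 lines.

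In fatty acid synthesis, Acaca, the acetyl-CoA carboxylase, went from 7.62 to 8.67 and 8.98 in the parental line, from 7.86 to 8.86 and 9.00 in the wild-type c-Myc line, and from 8.05 to 8.73 and 9.10 in the T58A line. Treated and untreated levels did not overlap. Acaca rose by 0.91 ± 0.09 on day 2 (limma adjusted p = 0.00083) and by 1.18 ± 0.09 on day 5 (adjusted p = 0.000166), a 2.27-fold rise.

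Elovl6, the elongase that extends palmitate, went from 10.77 to 11.27 and 11.46 in the parental line, from 10.80 to 11.45 and 11.52 in the wild-type c-Myc line, and from 10.86 to 11.29 and 11.57 in the T58A line. Its 3 lines lay close together at each time. Elovl6 rose by 0.53 ± 0.07 on day 2 (limma adjusted p = 0.00243) and by 0.71 ± 0.07 on day 5 (adjusted p = 0.00039).

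Scd1, a desaturase that makes oleate, went from 8.06 to 8.95 and 8.92 in the parental line, from 8.38 to 9.30 and 9.09 in the wild-type c-Myc line, and from 8.56 to 9.06 and 9.14 in the T58A line. The treated levels lay above the untreated ones on both days. Scd1 rose by 0.77 ± 0.10 on day 2 (limma adjusted p = 0.00171) and by 0.72 on day 5. Scd2, its paralog, rose by 0.67 and 0.65, and Fasn, the fatty acid synthase, by 0.33 and 0.44. Acly, which makes cytosolic acetyl-CoA from citrate, differed by 0.22 on day 5 and did not pass.

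The branch medians were 0.27 (sterol synthesis), 0.23 (control and transport) and 0.60 (fatty acid synthesis) on day 2, and 0.49, 0.38 and 0.68 on day 5. The median of all genes tested was 0.04 on day 2 and 0.05 on day 5. Without the wild-type c-Myc line, 4 of the 27 rose on day 2 and 11 on day 5, as did 623 and 1656 of 13263 genes, and Elovl6 did not pass on day 2 (limma adjusted p = 0.0641). Without the parental line, 8 rose on day 2, as did 1723 of 13307 genes.

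Marker genes moved in the same fit. On day 5, 1 of 8 ESC markers rose and 3 fell, with Utf1 at 1.02, Esrrb at -0.71, Zfp42 at -0.64 and Nanog at -0.35. Of 4 neural markers tested, Nes rose by 0.71 while Sox1 and Tubb3 fell by 2.30 and 0.95. Of 7 endoderm markers, Dab2 rose by 0.80 and Sox7 fell by 1.34, and of 4 trophoblast markers Eomes and Cdx2 rose by 0.68 and 0.54. Neither of 2 fibroblast or feeder markers passed. Over the 3 lines the ESC mean was 12.25 to 12.39 untreated and 12.13 to 12.30 on day 5, and the neural mean 6.32 to 6.58 and 5.64 to 5.75. The endoderm mean was 4.71 to 4.76 untreated and 4.60 to 4.69 on day 5, and the trophoblast mean 5.72 to 5.90 and 5.99 to 6.29. On day 2, 1 ESC marker rose and 3 fell, 2 neural markers fell, and 1 endoderm marker rose and 1 fell. Their part in the rise of the 27 genes was not tested.

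**Figure D2:**
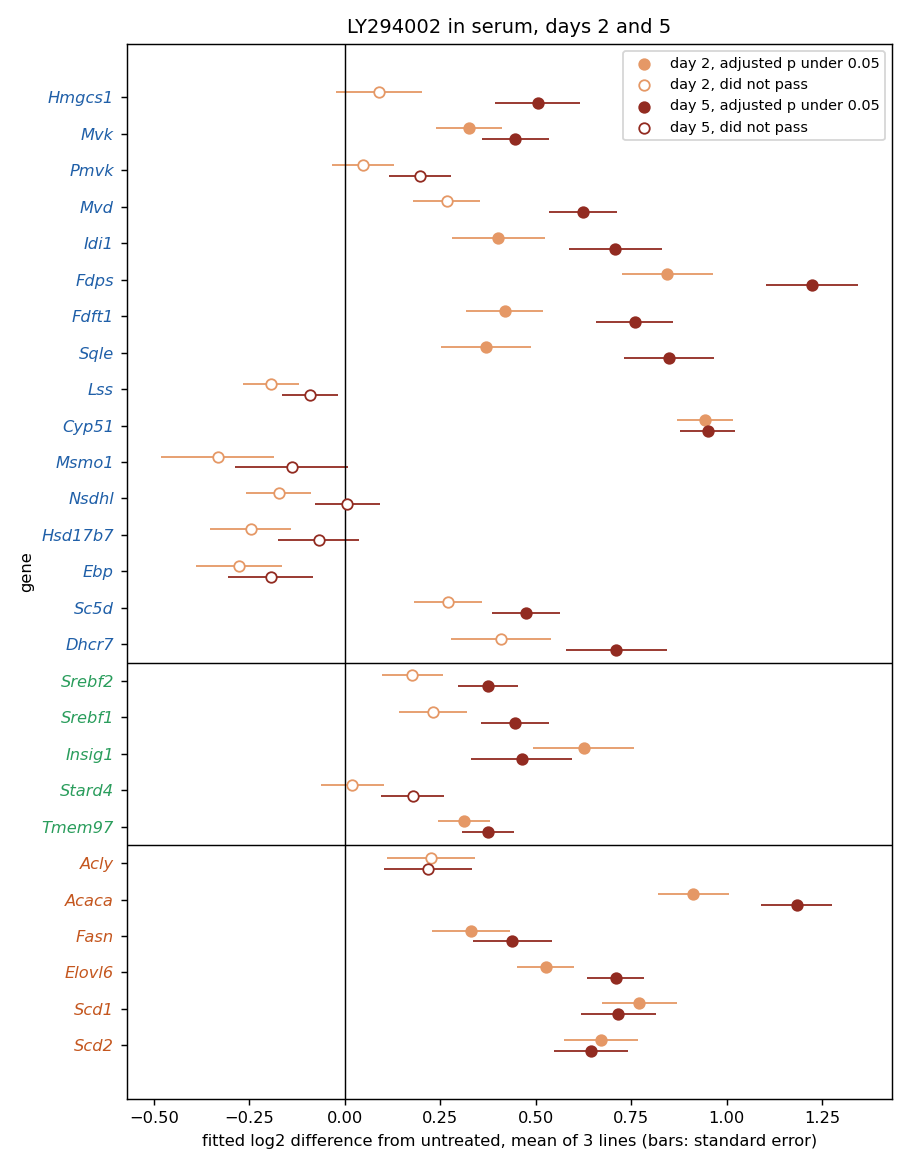
Log2 difference (horizontal axis) of each of the 27 genes after 2 and 5 days of LY294002 from the untreated sample of the same line, fitted over 3 lines, with bars for the standard error and filled points for an adjusted p under 0.05. Filled points lie above 0 on both days, and Lss, Ebp, Msmo1 and Hsd17b7 lie below 0 with open points.

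Of 26 further genes of the same pathways with values, 12 rose and 8 fell on day 5, against 25.7% and 18.5% of all genes. On day 2, 8 of the 26 rose and 5 fell, against 18.3% and 12.3%. Abca1, the cholesterol exporter, fell by 1.85 on day 5 (limma adjusted p = 6.88e-05) and by 1.03 on day 2. Abcg1, an exporter of the same family, rose by 1.27 on day 2. Lpin1, a phosphatidate phosphatase, fell by 1.39 on day 5, and Tm7sf2, a sterol reductase of the late pathway, rose by 1.47. The desaturase Fads2 rose by 1.07. In the first parental pair, which is not in this fit, Tm7sf2 went the other way, from 7.766 untreated to 7.265 on day 5. Abca1, Abcg1, Lpin1 and Fads2 kept their direction there. Between day 2 and day 5, 3 of the 26 fell, as did 150 of 13420 genes. Abca1 fell by 0.82, Acacb, the mitochondrial form of acetyl-CoA carboxylase, by 0.64, and Mid1ip1, its activator, by 0.58.

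Between day 2 and day 5, none of the 27 genes passed, where 2.35% of all genes did by limma. At an unadjusted p under 0.05, 10 of the 27 were higher on day 5 and none lower, against 12.0% of all genes. Mvd was 6.90, 7.32 and 7.67 in the parental line untreated, on day 2 and on day 5. It was 7.16, 7.48 and 7.73 in the wild-type c-Myc line and 7.05, 7.11 and 7.59 in the T58A line. Each line was thus higher on day 5 than on day 2, by 0.36 ± 0.09 in the fit (limma adjusted p = 0.0782). Sqle was 9.61, 10.02 and 10.15 in the parental line, 9.10, 9.47 and 10.10 in the wild-type c-Myc line and 9.02, 9.34 and 10.02 in the T58A line. Sqle differed by 0.48 ± 0.12 between the days (adjusted p = 0.0782). Without the parental line Sqle passed, at 0.65 (adjusted p = 0.0182), and without either other line none of the 27 did.

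The parental line had another pair of samples, on the arrays with lower medians, and there most of the 27 genes did not show the day 5 rise. The median difference of the 27 genes on day 5 was -0.12 in that pair, with 11 above 0 and 16 below. Of all genes 6215 of 12508 were above 0 there. None of the 27 was 2-fold higher, against 0.664% of genes. The median of the 27 was 0.51 in parental replicate 2, with 21 above 0, against 7376 of 13120 genes. It was 0.55 in the wild-type c-Myc line, with 25 above 0, against 7509 of 13249 genes. In the T58A line it was 0.41, with 26 above 0, against 7236 of 13347 genes. The highest differences in the first pair were Sc5d at 0.78, Fdps at 0.33 and Lss at 0.32. The lowest were Msmo1 at -0.85, Scd1 at -0.72 and Pmvk at -0.57. Cyp51 went from 7.66 to 7.85 there, Acaca from 8.24 to 8.38 and Elovl6 from 10.14 to 10.41. These 3 genes were among 10 of the 27 that lay above untreated on day 5 in all 4 serum pairs. With all 4 serum pairs in the fit, 10 of the 27 rose on day 5 in place of 19, as did 1666 of 13404 genes.

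**Figure D3:**
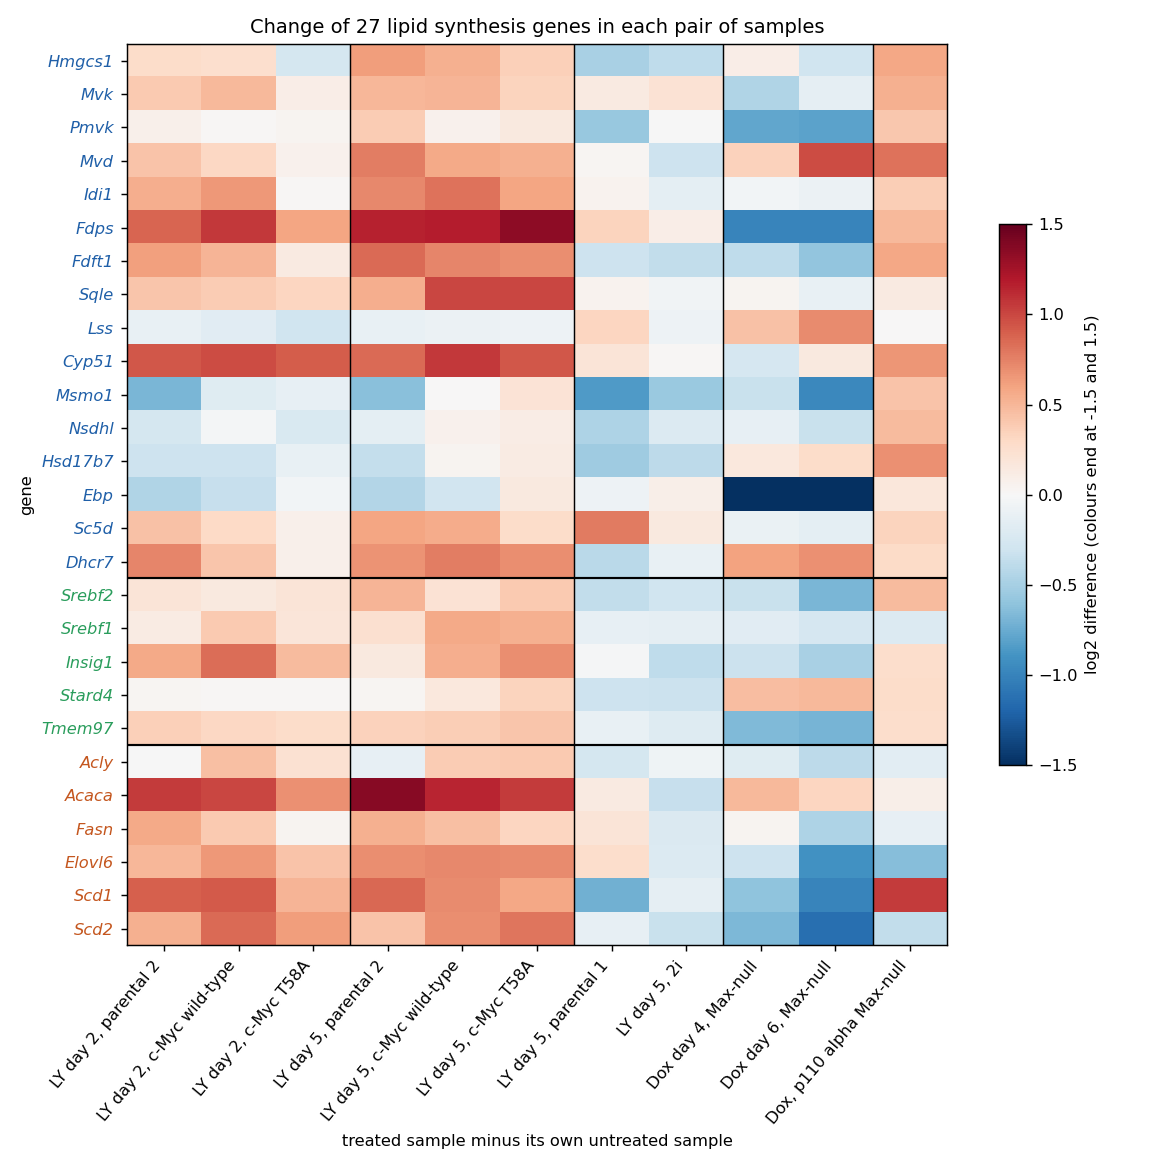
Log2 difference of each of the 27 genes (vertical axis) from the untreated sample of the same line for each LY294002 and Dox pair (horizontal axis), red above 0 and blue below, on a colour scale that stops at -1.5 and 1.5. The first parental pair and the 2i pair are more often below 0 than the other LY294002 pairs, and Ebp in the plain Max-null pairs goes past the scale.

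The effect of c-Myc on the day 5 response was addressed by comparing the lines labelled c-Myc with both parental pairs. None of the 27 genes passed, and none of 13404 genes did; at an unadjusted p under 0.05, 5 of the 27 were higher in the c-Myc lines, against 2.13% of all genes. Msmo1 changed from 8.85 to 8.86 in the wild-type line and from 8.81 to 9.01 in the T58A line. In the parental pairs it went from 9.06 to 8.21 and from 9.52 to 8.89. By this probe set Msmo1 was lower on day 5 in both parental pairs and not in either c-Myc line. The difference was 0.85 ± 0.18 (limma adjusted p = 0.996). A further Msmo1 probe set differed on day 5 by -0.92 in parental replicate 2, -0.20 in the wild-type line and -0.13 in the T58A line. On day 2 the probe set used was below untreated in both c-Myc lines, at 8.67 and 8.68. Acly differed by 0.58 ± 0.16, higher in the c-Myc lines (limma adjusted p = 0.996). Without parental pair 2, 13 of the 27 passed, all higher in the c-Myc lines and Msmo1 among them (adjusted p = 0.0366), as did 994 higher genes of 13305. The parental arm is then 1 pair, and it is on the arrays with lower medians while both c-Myc lines are on the others, so line and array group cannot be told apart there. Without parental pair 1, none did, and the fatty acid branch median turned from 0.46 to -0.06.

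In 2i medium most of the 27 genes lay below their untreated level after LY294002, in 1 pair of samples. The median difference was -0.20, with 5 genes above 0 and 22 below, where 6192 of 12632 genes were below 0. None of the 27 was 2-fold higher, against 0.435% of genes. The highest were Mvk at 0.22, Sc5d at 0.14 and Fdps at 0.10, and the lowest were Msmo1 at -0.56, Hsd17b7 at -0.39 and Hmgcs1 at -0.38. In this pair and the first parental pair, whose arrays share the lower medians, 15 of the 27 were below 0 in both and 4 above 0 in both.

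Set against all 4 serum pairs, the response in 2i did not pass for any of the 27 genes, nor for any of 13580 genes; at an unadjusted p under 0.05, 4 of the 27 were lower in 2i, against 5.92% of all genes. Elovl6 differed by -0.80 ± 0.24 (limma adjusted p = 0.417), going from 10.42 to 10.22 in 2i and up in each serum pair. Fasn, at 9.83 untreated and 9.62 treated in 2i, differed by -0.59 ± 0.20 (adjusted p = 0.428). The branch medians were -0.48, -0.45 and -0.69, against -0.03 for all genes. Centring moved the median of all genes to 0.11 and the branch medians to -0.34, -0.31 and -0.55. Without parental pair 1, 11 of the 27 passed, all lower in 2i and Elovl6 among them (adjusted p = 0.027), as did 834 lower genes of 13518. All serum pairs are then on the arrays with higher medians and the 2i pair on the others, so medium and array group cannot be told apart there.

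Culture in 2i against serum went with higher levels of part of the sterol branch and of Scd1. Over the 4 samples (2 in 2i, 2 in serum, LY294002 as a block), 8 of the 27 genes rose, none fell and 19 did not pass, against 3.68% higher and 3.15% lower among 12456 genes. The 8 were 6 of 16 sterol synthesis genes, 1 of 5 control and transport genes and 1 of 6 fatty acid genes. All 27 fitted differences were above 0, as were 6657 of the 12456 genes. The fit has 1 residual degree of freedom.

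Scd1 was 9.45 untreated and 8.73 with LY294002 in serum, and 11.40 and 11.27 in 2i. The groups were far apart. Scd1 rose by 2.25 ± 0.18 on the log2 scale, 4.74-fold (limma adjusted p = 0.0218). Hsd17b7, the ketosteroid reductase of the demethylation complex, was 6.41 and 5.87 in serum and 7.38 and 6.99 in 2i. It rose by 1.05 ± 0.11 (adjusted p = 0.029).

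Msmo1, the methyl oxidase, was 9.06 and 8.21 in serum and 9.94 and 9.38 in 2i. It rose by 1.02 ± 0.13 (limma adjusted p = 0.034). Sqle was 9.02 and 9.07 in serum and 9.93 and 9.87 in 2i. It rose by 0.85 ± 0.11 (adjusted p = 0.0356). For all 4 genes both 2i levels lay above both serum levels. Ebp rose by 0.79, Fdps by 0.77, Stard4 by 0.77 and Nsdhl by 0.75.

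Acly, Acaca, Fasn and Elovl6, the rest of fatty acid synthesis beside the desaturases, differed by 0.04 to 0.05 in the fit and did not pass. The median was 0.59 in sterol synthesis, 0.43 in control and transport and 0.05 in fatty acid synthesis, against 0.02 for all genes. Of the 26 further pathway genes, 5 rose and 1 fell, against 3.68% and 3.15% of all genes. Mylip, the ligase that degrades the LDL receptor, rose by 1.36, Tm7sf2 by 1.15, Npc2, a lysosomal cholesterol carrier, by 1.06 and the desaturase Fads1 by 0.73.

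By single pairs, 26 of the 27 were above 0 in untreated cells and 23 with LY294002, and 22 in both. Among all genes 6574 of 12580 were above 0 in untreated cells and 6689 of 12617 with LY294002. In untreated cells 2 of the 27 were at least 2-fold higher in 2i, Scd1 at 1.95 and Sc5d at 1.07, against 3.05% of genes. With LY294002 3 were, Scd1 at 2.54, Msmo1 at 1.17 and Hsd17b7 at 1.12, against 3.58%. The only one below 0 in untreated cells was Acly at -0.05. With LY294002, Elovl6 was at -0.19, Acaca at -0.19, Fasn at -0.16 and Lss at -0.02.

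The calls depended on the choice of serum samples. With parental replicate 2 as the serum reference, none of the 27 passed. Scd1 then differed by 2.85 (limma adjusted p = 0.0515), Msmo1 by 0.46 and Hsd17b7 by 0.12; the replicate 2 arrays have the higher medians. Without LY294002 as a block none passed either, and with no limit on low levels Scd1 alone did. With the mean of all its probe sets Hsd17b7 differed by 0.50 (adjusted p = 0.0799). Beside these differences, 3 of 4 neural markers above the limit were at least 2-fold lower in untreated 2i cells and 2 of 4 trophoblast markers were at least 2-fold higher, and their part in the result was not tested.

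**Figure D4:**
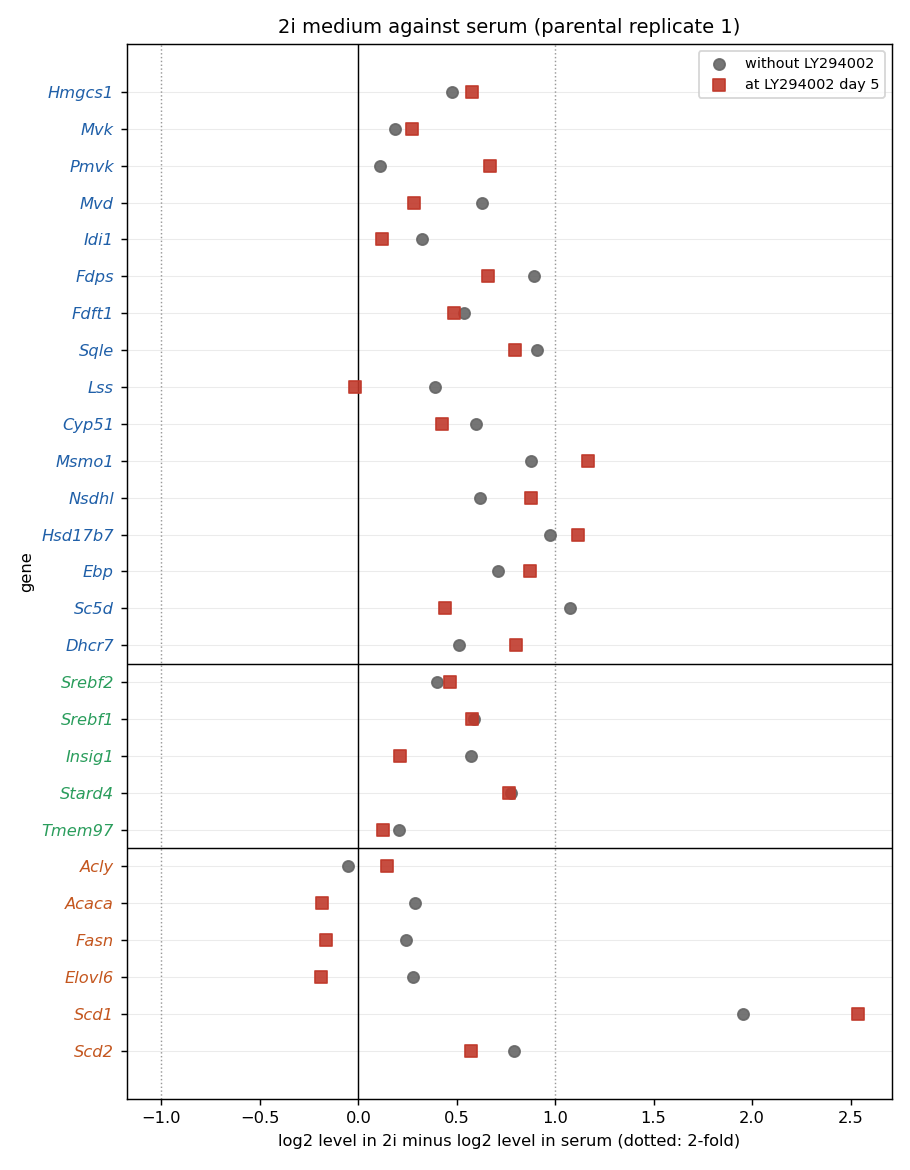
Log2 level in 2i minus log2 level in serum (horizontal axis) for each of the 27 genes, as 1 point for the untreated pair and 1 for the pair with LY294002, dotted lines marking 2-fold. Of the sterol synthesis genes all but Lss lie above 0 in both pairs, Scd1 lies farthest right, and Acaca, Fasn and Elovl6 lie on opposite sides of 0 in the pairs.

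Doxycycline in the Max-null lines was tested over 5 samples, 3 of plain Max-null and 2 of p110 alpha Max-null cells. None of the 27 genes passed, and none of 13534 genes did; at an unadjusted p under 0.05, 1 of the 27 was higher, against 3.35% of all genes. Mvd was 7.58 without Dox and 7.92 and 8.55 on days 4 and 6 in the plain line, and 6.43 and 7.24 in the p110 alpha line. It differed by 0.73 ± 0.30 (limma adjusted p = 0.8). Scd2 was 12.50, 11.83 and 11.37 in the plain line and 11.43 and 11.06 in the other, a difference of -0.68 ± 0.29 (adjusted p = 0.8). Both lines moved the same way for these 2 genes. Without either p110 alpha sample, the line block takes up the other one. The fit is then the plain Dox samples of days 4 and 6 against 1 untreated plain sample, the same contrast in both cases. Its spread comes only from the 2 Dox days, so no count is given.

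In the plain line, most of the 27 were below their untreated level. The median was -0.18 on day 4, with 9 above 0 and 18 below, and -0.33 on day 6, with 7 above and 20 below. Most of all genes were below 0 too, 7632 of 13456 on day 4 (median -0.09) and 7544 of 14019 on day 6 (median -0.09). Across both days 17 were below 0 and 6 above 0. Ebp, the sterol isomerase, was 9.45 without Dox, 7.93 on day 4 and 7.42 on day 6, differences of -1.52 and -2.03. Fdps was at -0.99 on each day and Pmvk at -0.78 on day 4. Scd2 was at -1.13 and Scd1 at -0.99 on day 6. On day 4, 1 of the 27 was at least 2-fold lower, against 8.71% of genes, and on day 6, 2 were, against 15.6%. The highest were Dhcr7 at 0.60, Acaca at 0.48 and Stard4 at 0.47 on day 4, and Mvd at 0.98, Lss at 0.71 and Dhcr7 at 0.68 on day 6.

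Markers of other cells moved with the plain line's Dox samples. Of 5 endoderm markers above the limit, 4 were at least 2-fold higher on day 6, and the endoderm mean went from 4.48 to 5.01 and 5.66. Gata4 and Sox7 were below the limit on day 6, at 4.38 and 3.90. Of 3 fibroblast or feeder markers above the limit, 2 were at least 2-fold higher on day 6. Of 3 neural markers above the limit, 1 was at least 2-fold higher and 1 at least 2-fold lower on that day. Of 5 trophoblast markers, 2 were at least 2-fold higher and 1 at least 2-fold lower. The ESC mean went from 12.47 to 12.41 and 12.02. Their part in the differences of the 27 genes was not tested.

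In the p110 alpha line, 22 of the 27 were above their untreated level with Dox and 5 below, with a median of 0.34. Among all genes 7990 of 13260 were above 0, with a median of 0.07. Scd1 was at 1.04, the only gene of the 27 at least 2-fold higher, against 1.55% of genes. Mvd was at 0.81 and Hsd17b7 at 0.68. The lowest were Elovl6 at -0.64, Scd2 at -0.37 and Srebf1 at -0.20. Here the endoderm mean went from 5.06 to 4.96, with single markers moving both ways. Dab2 went from 4.29 to 5.32, the only one of 6 endoderm markers above the limit at least 2-fold higher, and Sox7 from 6.29 to 5.32. Of 4 neural markers 1 was at least 2-fold lower, Pax6, from 7.37 to 5.86.

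The Dox responses of the lines differed for none of the 27 in the test of the difference, where 1.9% of all genes did. At an unadjusted p under 0.05, 4 were higher in the p110 alpha line, against 12.2% of all genes. Ebp, at 8.81 and 8.98 in the p110 alpha line, differed by 1.95 ± 0.54 between the responses (limma adjusted p = 0.102). Scd1 went from 10.09 to 9.48 and 9.09 in the plain line and from 8.70 to 9.74 in the p110 alpha line, a difference of 1.84 ± 0.53 (adjusted p = 0.109). The directions of Scd1 were opposite. The fit has 1 residual degree of freedom and mixes days that the labels do not match. Centring moved the median of all genes from 0.17 to -0.06, and the share of higher calls among all calls from 48.2% to 5.8%.

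The p110 alpha line stood below the plain Max-null line for most of the 27 genes. In untreated cells 26 of 27 were lower, with a median of -0.68, where 7322 of 13211 genes were lower, with a median of -0.06. Of the 27, 10 were at least 2-fold lower, against 4.78% of genes. The 10 were Hmgcs1, Mvd, Fdps, Fdft1, Cyp51, Dhcr7, Srebf2, Insig1, Scd1 and Scd2. The lowest were Insig1 at -1.49, Fdps at -1.42 and Scd1 at -1.39, and Sc5d at 0.01 was the only one above 0. Insig1 was 9.28 in the plain line and 7.78 in the p110 alpha line. Fdps was 10.07 and 8.65, and Scd1 10.09 and 8.70.

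Markers of other cells also differed between the untreated lines. Sox7, an endoderm marker, was 4.18 in the plain line and 6.29 in the p110 alpha line, the only one of 5 endoderm markers above the limit at least 2-fold apart. Sox1, a neural marker, was 4.28 and 6.19, the only one of 4, and Krt7, a trophoblast marker, was 6.04 and 4.20, the only one of 5. The list means were 4.48 and 5.06 (endoderm), 5.98 and 6.35 (neural), 6.13 and 5.79 (trophoblast) and 12.47 and 12.42 (ESC). Their part in the differences of the 27 genes was not tested.

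With Dox the medians lay closer to 0. Against day 4 the median was -0.28 with 17 below 0, and against day 6 it was -0.13 with 16 below 0. Among all genes 5796 of 13551 were below 0 against day 4 and 6604 of 14061 against day 6. Against day 4, Dhcr7 was at -1.66, Acaca at -1.29 and Acly at -0.92, and Ebp at 1.05, Pmvk at 0.51 and Sc5d at 0.44 were highest. Against day 6, Dhcr7 was at -1.74, Mvd at -1.31 and Lss at -1.14, with Ebp at 1.56, Msmo1 at 0.76 and Scd1 at 0.65 the highest. In all 3 pairings 16 of the 27 were below 0, of which 5 were fatty acid genes.

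Over the 5 samples none of the 27 passed the test of the line, and none of 13534 genes did; at an unadjusted p under 0.05, 11 were lower in the p110 alpha line, against 5.96% of all genes. Dhcr7, the last reductase of the pathway, was 8.62, 9.23 and 9.31 in the plain line and 7.28 and 7.56 in the p110 alpha line. The lines did not overlap. Dhcr7 differed by -1.55 ± 0.26 (limma adjusted p = 0.178). Acaca was 8.54, 9.03 and 8.86 in the plain line and 7.65 and 7.74 in the other, a difference of -1.07 ± 0.26 (adjusted p = 0.306). Branch medians were -0.43, -0.64 and -0.67, and 24 of 27 fitted values were below 0, as were 6359 of 13534 genes. Without the untreated sample of either line, Dhcr7 was at -1.70. In both fits the other untreated sample sets only the Dox term. The line difference is then the p110 alpha Dox sample against the 2 plain Dox samples, so both fits give the same contrast. The p110 alpha arm is 1 sample in it and is assumed to vary like the plain line.

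Both Max-null lines were set against 3 untreated serum samples of like array medians, as a description. These were parental replicate 2 and the EBRTcH3 derivatives labelled wild-type and T58A c-Myc, so only 1 of the 3 was the parental line. The plain Max-null sample was above all 3 for 23 of the 27 genes (85.2%, against 36.7% of all genes). The p110 alpha sample was below all 3 for 18 (66.7%, against 33.9%). Dhcr7 was 7.59, 7.62 and 7.50 in those 3 samples, between the plain line at 8.62 and the p110 alpha line at 7.28. Fdps was 9.02, 9.04 and 8.93 there, and Cyp51 was 7.77, 7.60 and 7.73 beside 8.65 in the plain line and 7.48 in the p110 alpha line. The 3 reference samples lay close together for these genes, with each Max-null line on its own side of them. The lines were each 1 sample without Dox, so line and sample cannot be told apart.

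**Figure D5:**
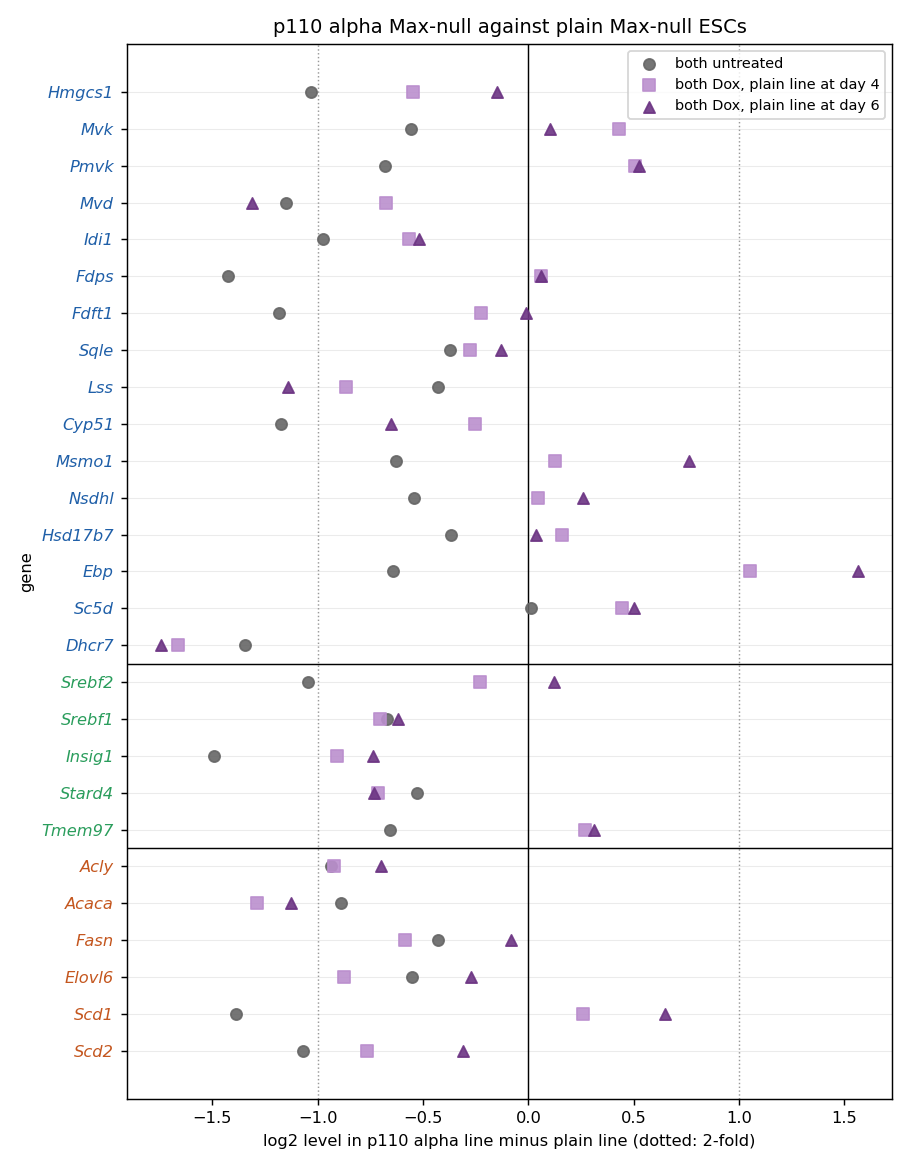
Log2 level in the p110 alpha Max-null line minus that in the plain Max-null line (horizontal axis) for each of the 27 genes, untreated and with Dox against day 4 and day 6 of the plain line, dotted lines marking 2-fold. The untreated points lie below 0 for all but Sc5d, Dhcr7 lies beyond 2-fold lower in all 3 pairings, and Ebp lies beyond 2-fold higher with Dox.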

How the data were processed

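RNA from 18 samples was hybridised to Affymetrix arrays, and the deposited values are log2 intensities per probe set that the authors made by RMA with the affy package, per the submitters' processing notes; versions are not given in the sources used here. The 2 ranges of array medians and decimals come from the values, and separate RMA runs were not stated. Of 45101 probe sets, 34945 named 1 gene, and each of 18193 genes was read by its brightest probe set on average (9010 had several). A gene entered a fit when 2 or more of its samples exceeded 4.64, the 40th percentile. Tests used lmFit and eBayes of limma 3.58.1 in R 4.3.3, with Benjamini-Hochberg adjustment over all genes tested at 0.05, and were tested on simulated data. The line was a block, since each sample's description names its reference. Deviations of same-line samples correlated at 0.10 to 0.62 and those of different lines at -0.63 to 0.53. The highest of the latter was between the c-Myc lines. The 27 genes, the pathway and marker lists and the comparisons were chosen with earlier results of these data known. In each test up to 4 genes with the smallest adjusted p were given in full (2 with the smallest p where none passed), in pairs given without a test the 3 largest differences each way, and of the pathway genes that passed up to 4 by p. Alternatives were the filter, scaling, probe set choice, prior, block and samples left out. Arrays give no counts, and their number limits the precision.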

Additional observations from a re-analysis of the deposited data

Results flagged for a closer look

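Scd1 moved in opposite directions with Dox in the Max-null lines. It was below its untreated level by -0.60 on day 4 and -0.99 on day 6 in the plain line and above it by 1.04 in the p110 alpha line. The difference between the responses was 1.84 on the log2 scale and did not pass (limma adjusted p = 0.109), and the day of the p110 alpha sample is not given.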

How the results depend on the processing

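Of the counts of passing genes under an alternative, 74 stayed within 1.5 times the reported count, 10 were higher and 7 lower. Several reported counts were 0, and each 0 that stayed 0 is among the 74. Against 8 in 2i, there were 1 with no limit on low levels, 14 with the limit at the 60th percentile, 13 with a trended prior, 0 with no replicate block and 0 with parental replicate 2. Against 19 on day 5 of LY294002, 10 rose with 4 serum pairs, and without the replicate block 19 did on day 5 and 9 on day 2. Against 0 between day 5 and day 2, 2 passed with a trended prior. Leaving out 1 line, pair or sample gave 4 to 16 on day 2, 11 to 20 on day 5, 0 to 1 between the days, 0 to 13 for c-Myc against parental, 0 to 11 for 2i against serum in the LY294002 response, 0 to 1 for Dox and 0 to 3 for p110 alpha. The fatty acid median for c-Myc against parental turned from 0.46 to -0.059 without parental pair 1, within a range of -0.059 to 0.762 when 1 pair was left out. Branch medians stayed within 1 SD in 252 alternatives and moved in 20. Over all genes, 851 calls in 2i became 152 with no limit and 1375 at the 60th percentile, 315 between the days became 713 with a trended prior and 57 without the block, 4099 on day 2 became 2663 without it, and 257 for the difference in Dox response became 52 with centring. The cause was not tested. No sample could be left out in the 2i fit or the Dox difference, where no residual degrees of freedom would remain. Arrays limit the precision through their number.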
